A study of Mus musculus with 10 samples.

Results

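Sdr9c7, Serpina11, Nat8, Kirrel3 and Smlr1 are 5 genes whose liver transcripts were lower in mice with a nuclear SREBP-1a transgene than in mice with a nuclear SREBP-2 transgene. They were chosen for that difference on these same arrays, so it is described here without a test. Each gene has 1 probe set, and the 5 probe sets are among 11868 tested on the Affymetrix U74Cv2 mouse array, which carries probe sets with a single gene name for 5928 genes. Levels are log2 values, so that a difference of 1 is a doubling.

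Livers came from 5 groups of male mice. The TgSREBP-1a group overexpresses human SREBP-1a from a transgene, in its active nuclear form, and the TgSREBP-2 group human SREBP-2. These mice and wild-type littermates, called SREBP wild type here, had an age of 12 to 16 weeks. For the last 2 weeks their diet was high protein/low carbohydrate, which raises expression of the transgenes. Scap-/- mice carry MX1-Cre, a recombinase gene switched on by interferon. These mice and the Scap wild type controls were 10 to 12 weeks old and ate Teklad chow. Both had 4 injections of polyinosinic-polycytidylic acid, and livers were taken 14 days after the last one. RNA from the 5 mice of a group made 1 pool, which was measured on 2 arrays. A spread given as SD or SE is therefore the spread between 2 hybridisations of 1 pool, and it holds no variation between mice. The p-values and intervals rest on that kind of spread too. In whole liver, fewer cells of a type and less RNA per cell cannot be told apart.

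SREBPs are membrane-bound transcription factors that turn on lipid synthesis once they are cut and enter the nucleus. SCAP is the escort protein that brings them to the Golgi, where they are cut. SREBP-1a acts on genes of both fatty acid and cholesterol synthesis, whereas SREBP-2 favours cholesterol synthesis and uptake. None of the 5 genes belongs to those pathways. Sdr9c7 encodes a short-chain dehydrogenase that acts on lipids of the skin barrier. Serpina11 encodes a secreted protein of the serpin family, whose members include the plasma protease inhibitors made by hepatocytes. Nat8 encodes an N-acetyltransferase of the endoplasmic reticulum that completes the synthesis of mercapturic acids, the excreted end products of glutathione conjugation. Kirrel3 encodes an adhesion protein of the immunoglobulin superfamily, related to the nephrin-binding proteins of the kidney filter. Smlr1 encodes a small leucine-rich protein.

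The upstream promoter sequences of 4 of the genes are shown because SREBPs bind sterol regulatory elements and E-boxes, often beside a CCAAT box. The RefSeq promoter table holds no entry for Kirrel3. Each sequence is the 250 bases before the annotated start of the gene, 5′ to 3′ on the strand of the gene, in build GRCm38.p6. Where the table gives several starts, the one farthest upstream is shown. Capitals mark matches on either strand to the sterol element TCACNCCAC, the E-box CANNTG, the CCAAT box or the TATA box TATAAA.
Sdr9c7 (chr10:127898285-127898534, + strand): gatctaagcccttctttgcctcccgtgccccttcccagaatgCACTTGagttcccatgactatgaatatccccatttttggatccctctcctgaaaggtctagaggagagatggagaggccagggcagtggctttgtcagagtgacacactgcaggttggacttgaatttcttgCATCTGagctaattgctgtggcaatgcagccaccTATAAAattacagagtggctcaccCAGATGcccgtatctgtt
Serpina11 (chr12:103989958-103990207, - strand): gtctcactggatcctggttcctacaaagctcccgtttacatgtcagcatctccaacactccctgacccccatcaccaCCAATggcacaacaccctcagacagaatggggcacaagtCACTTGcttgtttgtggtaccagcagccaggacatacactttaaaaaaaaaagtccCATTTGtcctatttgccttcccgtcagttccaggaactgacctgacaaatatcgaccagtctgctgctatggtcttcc
Nat8 (chr6:85836858-85837107, - strand): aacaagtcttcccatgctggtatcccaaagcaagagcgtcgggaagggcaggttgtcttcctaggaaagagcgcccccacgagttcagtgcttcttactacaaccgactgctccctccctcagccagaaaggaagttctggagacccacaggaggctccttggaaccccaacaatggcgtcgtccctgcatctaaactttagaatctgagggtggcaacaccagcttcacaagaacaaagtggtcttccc
Smlr1 (chr10:25536273-25536522, - strand): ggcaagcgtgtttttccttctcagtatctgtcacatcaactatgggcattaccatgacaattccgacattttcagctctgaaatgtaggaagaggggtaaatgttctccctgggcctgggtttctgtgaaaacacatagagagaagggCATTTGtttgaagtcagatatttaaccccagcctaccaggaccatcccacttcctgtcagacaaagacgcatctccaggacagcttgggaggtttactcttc

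The letters of the sterol element were in none of the 4 windows and in 1.05% of all 32851 promoter windows of that length. An E-box occurred 3 times in the Sdr9c7 window, 2 times in that of Serpina11, once in that of Smlr1 and not in that of Nat8, against 66.2% of all windows with at least 1. The Serpina11 window held a CCAAT box (33.8% of all windows), and the Sdr9c7 window held a TATA box from 42 to 37 bases before the start (12.4% of all windows). These matches are letters in a window and say nothing of binding.

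Sdr9c7 had the widest gap between the transgenics. Its level was 4.87 and 4.91 on the arrays of TgSREBP-1a, against 8.27 and 7.97 in TgSREBP-2. It was 7.80 and 7.34 in SREBP wild type, 7.42 and 6.84 in Scap wild type, and 7.40 and 7.02 in Scap-/-. The TgSREBP-1a arrays lay far below the other 8, and those of TgSREBP-2 lay above all of them. The difference was -3.23 (SE 0.205, a 9.41-fold difference) from TgSREBP-2 and -2.69 (SE 0.205, 6.44-fold) from SREBP wild type. In the TgSREBP-1a pool the gene was near the middle of the array, at the 53.1 percentile of probe sets, from the 92.4 percentile in SREBP wild type. Whether 4.89 is above background is unknown, because detection calls were not used here.

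Serpina11 had levels of 6.97 and 7.15 in TgSREBP-1a, 8.19 and 8.09 in TgSREBP-2, and 8.70 and 8.43 in SREBP wild type. The Scap-/- arrays read 8.77 and 8.51 and those of Scap wild type 9.01 and 8.96. Both transgenic pools were below SREBP wild type without overlap, TgSREBP-1a by more. Serpina11 differed by -1.51 (SE 0.124, 2.84-fold) between TgSREBP-1a and SREBP wild type, and by -0.43 (SE 0.124) between TgSREBP-2 and SREBP wild type. Between the transgenics the difference was -1.08 (SE 0.124, 2.11-fold).

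Nat8 followed the same order of groups. Its level was 7.998 and 7.75 in TgSREBP-1a, 8.995 and 8.84 in TgSREBP-2, 9.47 and 8.97 in SREBP wild type, 9.77 and 9.31 in Scap-/- and 9.96 and 9.78 in Scap wild type. TgSREBP-1a lay below the other 8 arrays, while TgSREBP-2 and SREBP wild type overlapped. Nat8 was 2.53-fold lower in TgSREBP-1a than in SREBP wild type (log2 difference -1.34, SE 0.181) and 2.06-fold lower than in TgSREBP-2 (-1.04, SE 0.181). A probe set that the annotation gives to more than 1 gene of the same acetyltransferase family differed by -1.36 (SE 0.220) from SREBP wild type and by -1.26 from TgSREBP-2. It is described after its values were seen. Another such probe set differed by -0.06 and 0.15 in the same comparisons.

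Kirrel3 levels were 6.44 and 6.74 in TgSREBP-1a and 8.05 and 7.87 in TgSREBP-2. They were 8.31 and 7.68 in SREBP wild type, 8.30 and 8.14 in Scap-/- and 8.37 and 8.23 in Scap wild type. The other 4 groups overlapped with their neighbours, and the TgSREBP-1a arrays stood below them all. Kirrel3 was 2.64-fold lower in TgSREBP-1a than in SREBP wild type (-1.40, SE 0.180) and 2.57-fold lower than in TgSREBP-2 (-1.36, SE 0.180), and TgSREBP-2 differed from SREBP wild type by -0.04 (SE 0.180).

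Smlr1 differed from the other 4 in its small step below SREBP wild type in TgSREBP-1a, of less than 1.5-fold. Its levels were 8.82 and 8.85 in TgSREBP-1a, 9.30 and 9.02 in SREBP wild type and 10.17 and 9.76 in TgSREBP-2. The Scap-/- arrays read 9.58 and 9.15 and those of Scap wild type 9.34 and 9.09. The TgSREBP-1a arrays were the lowest of the 10, but by a small step, and the TgSREBP-2 arrays were the highest, as for Sdr9c7. The difference between the transgenics (-1.13, SE 0.173, 2.20-fold) was made up of -0.33 (SE 0.173) between TgSREBP-1a and SREBP wild type and 0.81 (SE 0.173, 1.75-fold) between TgSREBP-2 and SREBP wild type. Both parts use the SREBP wild type arrays. They were -0.18 and 0.95 without its replicate 1, and -0.47 and 0.67 without its replicate 2. The larger share of its gap between the transgenics thus lay on the side of TgSREBP-2, and Smlr1 does not bear out a label of lowered with SREBP-1a alone. Serpina11 does not fully bear it out either, since it was also below SREBP wild type in TgSREBP-2 (-0.43, SE 0.124), without overlap.

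**Figure D1:**
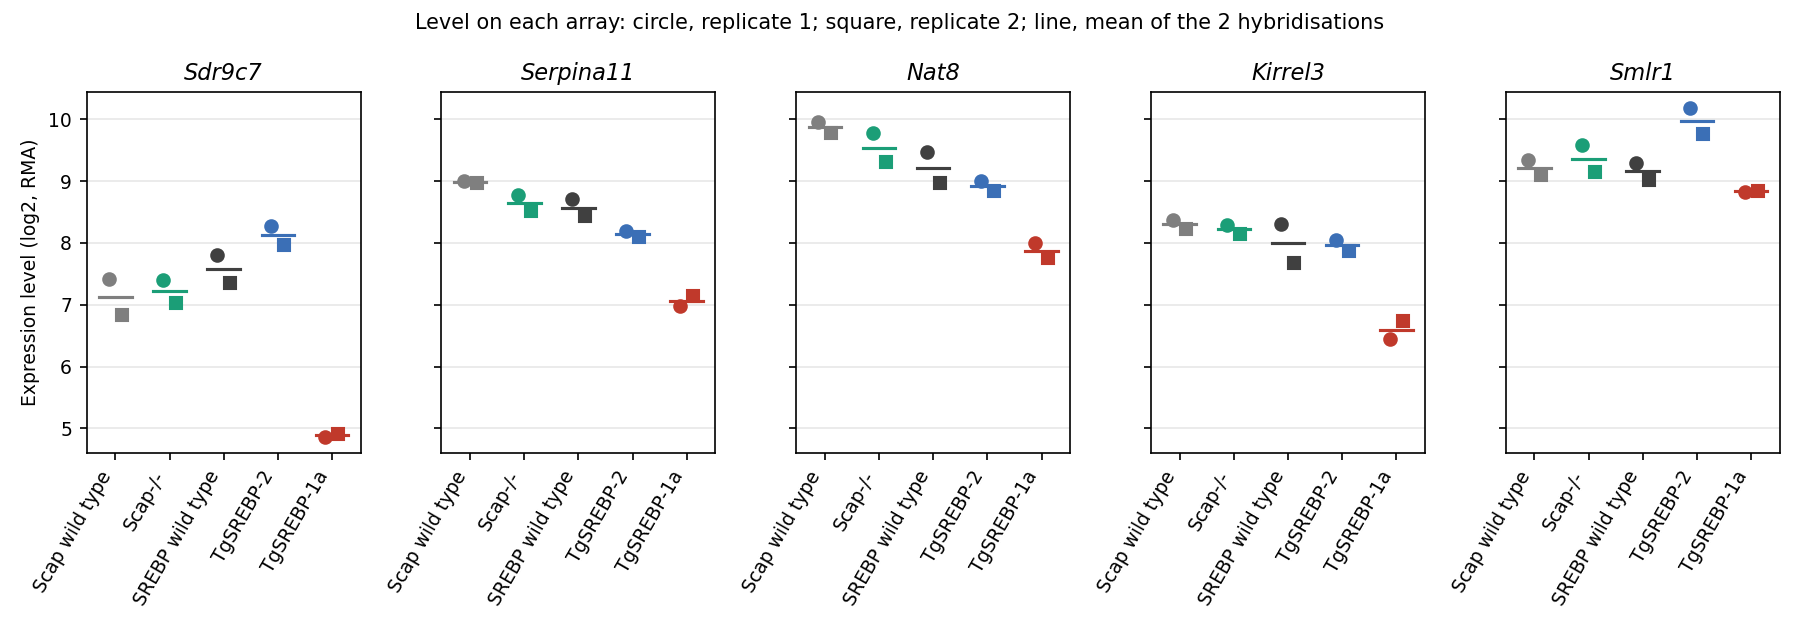
Expression level (log2, vertical axis) of the 5 genes on each of the 10 arrays, by group. Circles are replicate 1, squares replicate 2 and lines the mean of the 2 hybridisations of a pool. The TgSREBP-1a arrays are the lowest in every panel, from 4.87 for Sdr9c7 to 8.85 for Smlr1, and TgSREBP-2 is the highest group for Sdr9c7 and Smlr1.

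The 5 genes were chosen as lower in TgSREBP-1a than in TgSREBP-2, and all 5 were at least 1.5-fold lower, with a median of -1.13. Of all tested probe sets, 0.531% were that much lower, with a median of -0.02, and arrays did not overlap at 21.5% in that direction. Against SREBP wild type, 4 of the 5 were at least 1.5-fold lower in TgSREBP-1a, with a median of -1.40, where 0.556% of all tested probe sets were. The arrays of TgSREBP-1a lay below those of SREBP wild type for all 5 genes, and at 24.2% of all probe sets. These comparisons share the TgSREBP-1a arrays with the choice and are given as description. Since the comparisons with SREBP wild type share its arrays, their values are set side by side and, apart from the split of the Smlr1 gap, not related to each other.

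In TgSREBP-2, 0 of the 5 genes were 1.5-fold lower than in SREBP wild type, and 1 was at least that much higher, Smlr1, where 0.126% and 0.497% of all tested probe sets were. The arrays of TgSREBP-2 lay above those of SREBP wild type for Sdr9c7 (0.55, SE 0.205) and Smlr1, as at 16.6% of all probe sets, below them for Serpina11, as at 18.5%, and overlapped with them for Nat8 (-0.30, SE 0.181) and Kirrel3. The value for Nat8 was -0.049 without SREBP wild type replicate 1 and -0.55 without replicate 2. Against SREBP wild type the 5 genes thus lay on both sides of 0 in TgSREBP-2, from -0.43 to 0.81, and below 0 in TgSREBP-1a, from -2.69 to -0.33.

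**Figure D2:**
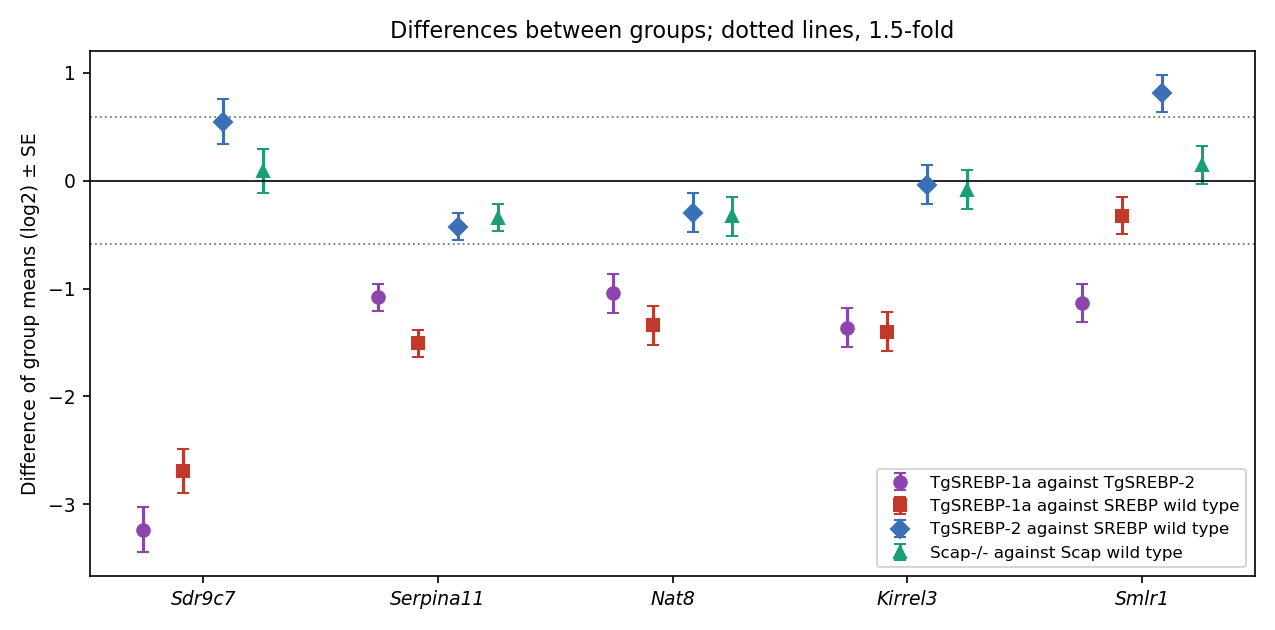
Difference of group means (log2, vertical axis) for each gene in 4 comparisons, with bars of 1 SE from the limma fit and dotted lines at 1.5-fold. Both comparisons of TgSREBP-1a are negative for every gene, from -3.23 for Sdr9c7 to -0.33 for Smlr1, while the Scap-/- values lie between -0.34 and 0.15.

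Loss of SCAP is the comparison whose arrays the choice of genes did not use. In it, limma called 0 of the 5 genes, 1 of them had an unadjusted p under 0.05, and 0.0843% of all tested probe sets were called. The share of all probe sets with an unadjusted p under 0.05 was not computed, here or for the lists below. None of the 5 was 1.5-fold lower, where 0.152% of all were. Serpina11 was 8.64 ± 0.18 in Scap-/- and 8.98 ± 0.03 in Scap wild type (SD, n = 2 hybridisations), a difference of -0.34 (95% interval -0.617 to -0.0724, limma adjusted p = 0.999, unadjusted p = 0.0176). Nat8 was 9.54 ± 0.33 and 9.87 ± 0.12, a difference of -0.33 (95% interval -0.728 to 0.0671, limma adjusted p = 0.999). For both genes the Scap-/- arrays lay below those of Scap wild type, as they did at 14.9% of all probe sets.

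The other 3 genes overlapped between Scap-/- and Scap wild type. Sdr9c7 differed by 0.09 (95% interval -0.36 to 0.54), Kirrel3 by -0.08 (-0.48 to 0.31) and Smlr1 by 0.15 (-0.23 to 0.52), each with a limma adjusted p = 0.999. For every gene but Nat8 and Serpina11 these intervals lie inside 1.5-fold in both directions, and they cover the spread between hybridisations alone. Scap itself and the transgenes were not analysed here, so the genotypes are checked through targets alone. The sterol dehydrogenase gene Nsdhl, a target of SREBPs, fell by 2.47 between the same pools (limma adjusted p = 0.00623), a call lost without Scap wild type replicate 1 (-2.22).

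The wild types were also set beside each other, although diet, age and injections differ between them and cannot be told apart. Nat8 was lower in SREBP wild type than in Scap wild type (-0.65, SE 0.181, 1.57-fold) and so was Serpina11 (-0.41, SE 0.124), both without overlap of arrays, as at 14% of all probe sets. Nat8 was the 1 gene of the 5 past 1.5-fold, where 0.472% of all tested probe sets were. Kirrel3 (-0.31), Sdr9c7 (0.45) and Smlr1 (-0.06) overlapped. From lowest to highest, the order of groups for Serpina11, Nat8 and Kirrel3 was TgSREBP-1a, TgSREBP-2, SREBP wild type, Scap-/- and Scap wild type. The neighbours SREBP wild type and Scap-/- overlapped for all 3 genes, and TgSREBP-2 and SREBP wild type overlapped for Nat8 and Kirrel3. For Sdr9c7 the order above TgSREBP-1a was Scap wild type, Scap-/-, SREBP wild type and TgSREBP-2. For Smlr1 it was SREBP wild type, Scap wild type, Scap-/- and TgSREBP-2. In both orders the steps to TgSREBP-2 and from TgSREBP-1a had no overlap, and the other neighbours overlapped.

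The 5 genes differed in how closely they ran together over the arrays. Over all 10 arrays Serpina11 and Nat8 had a Pearson r of 0.977, Serpina11 and Kirrel3 0.958, and Nat8 and Kirrel3 0.940. Over the 8 arrays without TgSREBP-1a, which stand apart for most of the genes, these values were 0.958, 0.740 and 0.862. Sdr9c7 and Smlr1 had an r of 0.791 over 10 arrays and 0.839 over those 8. Sdr9c7 and Kirrel3 had a higher r of 0.860 over 10 arrays, but -0.202 over the 8. The sign also turned without TgSREBP-1a for Sdr9c7 with Serpina11 (0.749 over 10 arrays, -0.655 over 8) and with Nat8 (0.704 and -0.544). It turned as well for Smlr1 with Serpina11 (0.341 and -0.566), Nat8 (0.359 and -0.352) and Kirrel3 (0.55 and -0.0226). A split into Serpina11, Nat8 and Kirrel3 on one side and Sdr9c7 and Smlr1 on the other thus appeared over the 8 arrays. Over all 10 it did not hold for Sdr9c7, which had a higher r with Kirrel3 than with Smlr1. The arrays of a pair share a pool, so these values describe at most 5 pools and are given with no p.

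**Figure D3:**
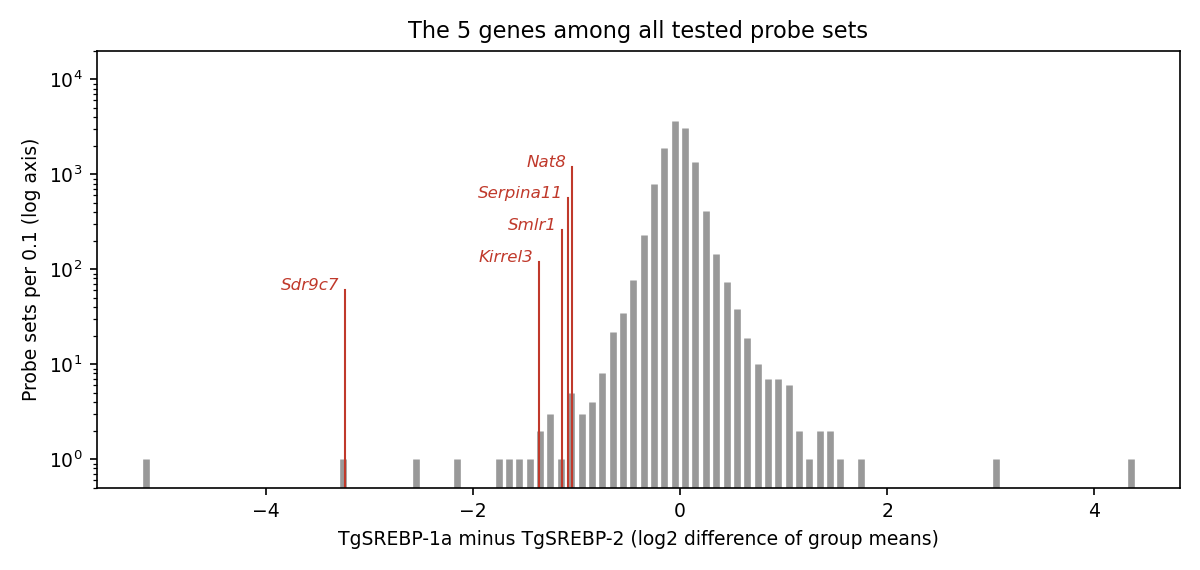
Number of probe sets (log axis) by their log2 difference between TgSREBP-1a and TgSREBP-2, in steps of 0.1, with red lines at the 5 genes. Sdr9c7 at -3.23 ranks as the 2nd most negative of 11868 probe sets and the other 4 lie between -1.36 and -1.04, at the lower edge of the distribution.

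By rank among the 5928 genes, Sdr9c7 stood at 2, Kirrel3 at 6, Smlr1 at 9, Serpina11 at 10 and Nat8 at 12 from the most negative difference between the transgenics. Genes that are not among the 5 lie in the same range. The acinar genes Cpa1 (-5.18) and Gp2 (-2.56) were more negative than any of the 5 but Sdr9c7, which lay between them. The nearest genes on the more negative side of Nat8 were the acinar gene Cuzd1 (-1.78), the amino acid transporter subunit gene Slc3a1 (-1.66), the interleukin-1 receptor accessory gene Il1rap (-1.26), Fads3 (-1.24) and the sodium-proton exchanger gene Slc9a4 (-1.07). On the less negative side the nearest were Reg2 (-1.02), Gfra1 (-0.99), Lrrc3 (-0.97), Lbp (-0.88) and Scara5 (-0.84). The 5 genes are therefore a selection from the lower end and not the whole of it.

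The genes most like each of the 5 were sought among 370 probe sets with 1 gene name (clone and predicted names left out) and a range of at least 1.5-fold over the group means, by Pearson r over the 10 arrays. Fam47e was the closest to Serpina11 (0.969, and 0.975 without TgSREBP-1a) and to Nat8 (0.953 and 0.917). Its means ran from 5.64 in TgSREBP-1a through 6.06 in TgSREBP-2 and 6.42 in SREBP wild type to 6.77 in Scap wild type. Klb, the co-receptor gene for the hormone FGF21, was next for Serpina11 (0.952 and 0.820). Il1rap was the closest to Kirrel3 (0.942 and 0.754), with a mean of 5.53 in TgSREBP-1a and of 6.78 to 7.28 elsewhere. A second Il1rap probe set with a low mean level of 2.90 differed by -0.08 between TgSREBP-1a and SREBP wild type.

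For Sdr9c7 the closest was B3galt1, a galactosyltransferase gene (0.922, falling to 0.547 without TgSREBP-1a). Other B3galt1 probe sets differed by -0.49 and -0.09 between TgSREBP-1a and SREBP wild type. For Smlr1 the closest were Gas7 (0.902 and 0.889) and Fads3 of the desaturase family (0.880 and 0.909), with Fads3 at 5.57 in TgSREBP-2 and 4.28 to 4.62 elsewhere. Further probe sets of these genes were less like Smlr1, with an r of 0.505 and 0.420 for Gas7 and -0.797 for Fads3. For the mean of the standardised levels of the 5 the closest were Il1rap (0.948), Lrrc3 (0.941), Parva (0.892), Aspdh (0.888) and Mpdz (0.869). Without TgSREBP-1a their values were 0.755, 0.847, 0.771, 0.723 and 0.625.

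Of 31 listed serpin genes other than Serpina11, 8 were measured. Their summed linear signal was 961.8 to 996.5 in TgSREBP-1a, 1020 to 1088 in TgSREBP-2, 1108 to 1305 in SREBP wild type, 1606 to 1986 in Scap-/- and 1883 to 1984 in Scap wild type. The sums of the 3 groups on the high protein diet stood in the same order as for Serpina11, without overlap, and below both Scap groups. Bright genes weigh most in this sum. Serpina12 was at 10.05 in Scap wild type and 9.82 in Scap-/-, against 8.585 in SREBP wild type. In the transgenics it was at 7.92 (TgSREBP-1a) and 7.84 (TgSREBP-2), so it did not follow the order of Serpina11. Serpinf2 was at 8.88 in TgSREBP-1a, 9.10 in TgSREBP-2 and 9.07 in SREBP wild type. Between TgSREBP-1a and TgSREBP-2 limma called 0 of the 8 serpins, with 1 at an unadjusted p under 0.05. The median was -0.08, where 0.514% of all tested probe sets were called. Between TgSREBP-1a and SREBP wild type 1 of 8 fell and none rose, with a median of -0.17 against -0.03 for all probe sets, of which 1.04% were called. That was Serpina12, the gene of the adipokine vaspin (log2 difference -0.66, SE 0.137, limma adjusted p = 0.0469), which differed by -0.75 in TgSREBP-2 (adjusted p = 0.11). The call for Serpina12 was lost on leaving out any array but those of Scap-/- (-0.76 to -0.56). Serpina9, the next gene to Serpina11 in the RefSeq order, differed by 0.09 in both comparisons of TgSREBP-1a, and Serpina1a, on the other side of it, by -0.07 and -0.34. The probe set of Serpina1a read only 3.23 to 3.58 in the 5 groups, and 4 genes lie between Serpina1a and Serpina11.

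Short-chain dehydrogenases and retinoid enzymes were listed for Sdr9c7, and 11 of 45 were measured. Of these limma called 0 between the transgenics, with 3 at an unadjusted p under 0.05, and 1 fell and none rose between TgSREBP-1a and SREBP wild type. The median differences were -0.00 and 0.13. Bdh2, a dehydrogenase of the same family, fell 1.98-fold (log2 difference -0.98, SE 0.162, limma adjusted p = 0.0122), a call lost without TgSREBP-1a replicate 1 or replicate 2 (-1.03 to -0.94). Decr2, the peroxisomal dienoyl-CoA reductase gene, differed by 0.82 (limma adjusted p = 0.0527).

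For Nat8, the list of N-acetyltransferases and mercapturate enzymes had 4 measured of 40. The glutathione transferase gene Gstm1 rose against SREBP wild type (0.80, SE 0.105, limma adjusted p = 0.00308) and against TgSREBP-2 (0.76, SE 0.105, limma adjusted p = 0.00654), opposite in sign to Nat8. Leaving out TgSREBP-1a replicate 1 removed both calls (0.74 and 0.70), and leaving out TgSREBP-2 replicate 2 the latter (0.66). The other 3 were not called, among them Nat8l, a relative of Nat8 (-0.15 and 0.02). For Kirrel3, 10 of 27 listed adhesion genes and slit diaphragm partners were measured, and limma called 0 of them in each of the 4 comparisons. Of the 10, 5 had an unadjusted p under 0.05 between the transgenics and 1 between TgSREBP-1a and SREBP wild type. No share of all probe sets at that unadjusted level was computed, so these counts cannot be read against a background. Kirrel, a relative of Kirrel3, differed by -0.25 between the transgenics and by -0.04 between TgSREBP-1a and SREBP wild type. Of 40 listed hepatocyte transcription factors 7 were measured, and limma called 0 of them in the 4 comparisons, with at most 1 at an unadjusted p under 0.05 in each. Rxra, the partner of many nuclear receptors, differed by -0.20 and the xenobiotic receptor gene Nr1i2 by 0.32 between TgSREBP-1a and SREBP wild type. Of 16 measured SREBP target genes of 37 listed, 5 rose and none fell in TgSREBP-1a, 4 rose and none fell in TgSREBP-2, where 0.118% of all tested probe sets were called, and 3 fell and none rose in Scap-/-. The sterol reductase gene Tm7sf2 lost its call in TgSREBP-1a without either array of that group or SREBP wild type replicate 2 (1.13 to 1.49). In Scap-/- it lost its call without replicate 2 of that group or either array of Scap wild type (-1.93 to -1.61). Since Nsdhl is lost there without Scap wild type replicate 1 as well, 1 of the 3 calls, that of Pmvk, is left without that array.

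The nearest measured neighbours of the 5 genes in the genome were not called by limma in any of the 4 comparisons, and between 0 and 13 genes of the RefSeq order lay between them and the gene. Beside Nat8, the adducin gene Add2 differed by -0.46 between the transgenics (limma adjusted p = 0.322) and by -0.37 between TgSREBP-1a and SREBP wild type, while Egr4 on the other side differed by 0.04 and 0.02. Beside Kirrel3, Ets1 differed by 0.12 and 0.14 and Dcps by -0.02 and -0.32. Zbtb39 and Baz2a beside Sdr9c7 and Akap7 and Samd3 beside Smlr1 lay between -0.19 and 0.21 in these comparisons.

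Markers of other cells also differed between the pools. Of 24 pancreatic acinar markers 7 were measured. Their summed linear signal was 158 to 164 in TgSREBP-1a, 149 to 163 in Scap-/-, 476 to 490 in Scap wild type, 898 to 1397 in SREBP wild type and 1694 to 2123 in TgSREBP-2. Between TgSREBP-1a and TgSREBP-2, 3 of the 7 fell and none rose. Cpa1, a pancreatic carboxypeptidase gene, fell by 5.18 (limma adjusted p = 1.15e-07). It was the brightest of them in TgSREBP-2, at 10.67, and weighs most in the sum there. Amy2a5, Cpb1 and Pnliprp1 read only 2.62 to 3.70 in the 5 groups and were not called. Between the transgenics they differed by -0.35, -0.22 and 0.12. The zymogen granule gene Gp2 changed by -2.56 (limma adjusted p = 1.21e-05). Between Scap-/- and Scap wild type 2 of the 7 fell and none rose, and limma called 0 of the 5 genes there. Sdr9c7 and Smlr1 were highest in TgSREBP-2, as the acinar sum was. The part of the acinar signal in the levels of the 5 genes was not tested.

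**Figure D4:**
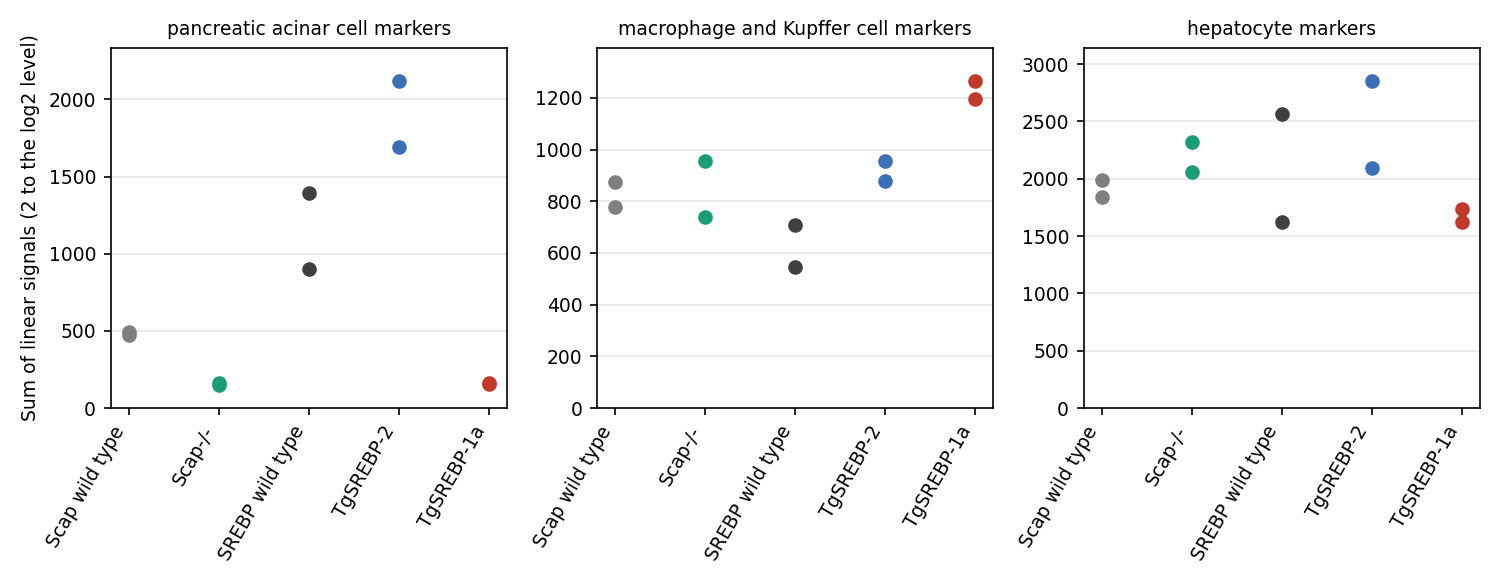
Summed linear signal (vertical axis, from 0) of the measured markers of pancreatic acinar cells (7 genes), macrophages and Kupffer cells (3) and hepatocytes (3) on each array, by group. The acinar sum is at most 164 in both TgSREBP-1a and Scap-/- and reaches 2123 in TgSREBP-2, and the macrophage sum is highest in TgSREBP-1a, at 1195 to 1267.

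Of 14 listed macrophage and Kupffer cell markers 3 were measured, and their sum was 1195 to 1267 in TgSREBP-1a, 878 to 954 in TgSREBP-2, 547 to 707 in SREBP wild type, 740 to 957 in Scap-/- and 778 to 873 in Scap wild type. Against SREBP wild type, 2 of the 3 rose in TgSREBP-1a and none fell. The complement receptor gene Vsig4 rose by 1.14 (limma adjusted p = 0.0185) and Laptm5 by 1.05 (adjusted p = 0.00538), while C1qc differed by 0.17. Between TgSREBP-1a and TgSREBP-2 limma called 0 of the 3, with 1 at an unadjusted p under 0.05 (Laptm5 0.51, Vsig4 0.40 and C1qc -0.05, adjusted p = 0.303, 0.7 and 0.97). Leaving out TgSREBP-1a replicate 1 ended both calls, as did leaving out replicate 2 of SREBP wild type (0.872 to 0.988 for Laptm5). Vsig4 also lost its call without TgSREBP-1a replicate 2 (0.864 to 1.16 over the 3 arrays). The part of these cells in the lower levels of the 5 genes was not tested.

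Hepatocyte markers were thinly covered, with 3 of 21 measured. Limma called 0 of them in the 4 comparisons, with 2 at an unadjusted p under 0.05 between the transgenics. The plasma haem-binding protein gene Hpx was at 10.39 in both TgSREBP-1a and SREBP wild type and at 10.93 in TgSREBP-2. The fibrinogen gene Fga was at 8.38 in TgSREBP-1a and 9.41 in SREBP wild type (-1.04, SE 0.231, limma adjusted p = 0.0665). In TgSREBP-2 it was at 8.92 (-0.49 from SREBP wild type, limma adjusted p = 0.79), and the SD in SREBP wild type was 0.62. The probe set of Ahsg, a plasma protein of hepatocytes, read only 2.73 to 3.02 in the 5 groups. The sum of the 3 was 1623 to 1739 in TgSREBP-1a, 2094 to 2857 in TgSREBP-2, 1620 to 2562 in SREBP wild type, 2056 to 2322 in Scap-/- and 1837 to 1987 in Scap wild type. The TgSREBP-1a arrays thus lay below those of every group but SREBP wild type, with which they overlapped. The part of this difference in the lower levels of the 5 genes was not tested. Epcam, 1 of 2 measured bile duct markers of 8, fell by 0.63 in TgSREBP-1a (limma adjusted p = 0.00538), a call lost without TgSREBP-1a replicate 1 (-0.61). In TgSREBP-2 Epcam differed by -0.54 from SREBP wild type (limma adjusted p = 0.0587), and between the transgenics by -0.09. Sox9, the other measured bile duct marker, went the other way. It differed from SREBP wild type by 0.24 in TgSREBP-1a (limma adjusted p = 0.426) and by 0.18 in TgSREBP-2, and between the transgenics by 0.06. Limma called 0 of the 3 endothelial, 1 stellate and 2 lymphocyte markers in the 4 comparisons. Between the transgenics 0, 1 and 1 of them had an unadjusted p under 0.05.

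Duplicate arrays correlated at 0.992 to 0.994 across probe sets, yet 6 of the 10 arrays were closer to an array of another group than to their duplicate. Replicate 1 read higher than replicate 2 for all 5 genes in the 4 groups other than TgSREBP-1a, by 0.04 for Serpina11 in Scap wild type to 0.63 for Kirrel3 in SREBP wild type. In TgSREBP-1a that held for Nat8 alone (0.24). The 3′ and middle control probe sets for 18S ribosomal RNA were higher in replicate 2 in every group, the 3′ set with 8.03 against 8.21 in Scap wild type and 7.19 against 9.16 in TgSREBP-1a. The 5′ set was higher in replicate 2 in 4 groups and lower in Scap wild type (5.235 in replicate 1 and 5.018 in replicate 2). Their part in these shifts was not tested. The shifts between duplicates were smaller than the differences from TgSREBP-1a to the other groups for Sdr9c7, Serpina11, Nat8 and Kirrel3, whereas for Smlr1 the step of 0.33 to SREBP wild type was close to the 0.28 between the duplicates of SREBP wild type.

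Some probe sets limit what can be said of a gene. That of Sdr9c7 carries the suffix f_at, marking probes that may match a family of transcripts, as do 1091 of the tested probe sets. That of Kirrel3 carries i_at, marking an incomplete set of probes, as do 1307. With 1 probe set for each gene, no second measurement of any of the 5 was at hand on these arrays.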

How the data were processed

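Liver RNA pools of 5 groups were measured on 10 arrays. The deposited values are log2 expression per probe set, made by the authors with RMA (background correction, normalisation across arrays, summary of probes) per the submitters' processing notes; no version is given, and the series' design text names Microarray Suite 5.0. They range from 2.17 to 13.3, with array medians of 4.69 to 4.77, and were not transformed. With 2 arrays of the same pool in each group, the precision is that of the hybridisations, and the p-values hold no variation between mice.

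After 66 of 11934 probe sets, the AFFX controls, were left out, 11868 were tested; the platform annotation gives 1 gene for 7717, several for 150 and none for 4001. Symbols were updated through Entrez identifiers (7699 matched RefSeq). The brightest probe set stands for a gene. One limma 3.58.1 fit in R 4.3.3 (lmFit, eBayes, 5 groups, 5 residual and 6.26 prior degrees of freedom) gave two-sided p-values with Benjamini-Hochberg adjustment over all tested probe sets. A call needs an adjusted p under 0.05 and 1.5-fold. The fit was checked on simulated data, with changes planted in Scap-/-. Of 50 planted changes of 1.5-fold it called 20, and of 50 of 2-fold it called 45, with 6 false calls. The members, lists and tests were chosen with earlier results of these data known. Named besides members: the genes with the highest r, nearest neighbours, genes next to the smallest difference, and list members that were called or had a large difference. Promoters come from RefSeq (GRCm38.p6).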

Additional observations from a re-analysis of the deposited data

How the results depend on the processing

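The alternatives were median centring or quantile normalisation of the arrays, a filter to the brighter probe sets, a trend or robust option in the variance, a fit within each study, other fold floors, a replicate block and each array left out. All 5 genes stayed at least 1.5-fold lower (2-fold with the 2-fold floor) in TgSREBP-1a than in TgSREBP-2, and 4 stayed so against SREBP wild type, or 5 with no fold floor. The genes were chosen on the first of these contrasts, so its count is no support for them. Both counts rest on group means alone. The brighter filter, the variance options, the fit within each study and the block cannot change those means, nor can leaving out arrays of other groups. With no fold floor, 3 genes lay below SREBP wild type in TgSREBP-2 and 3 below Scap wild type in Scap-/-, where 0 did at 1.5-fold. No gene was called in Scap-/- under any of these. Leaving out 1 array, the Scap-/- difference ranged from -0.20 to 0.38 for Sdr9c7, -0.47 to -0.22 for Serpina11, -0.56 to -0.10 for Nat8, -0.16 to -0.0040 for Kirrel3 and -0.072 to 0.36 for Smlr1. Its sign turned for Sdr9c7 without Scap-/- replicate 1 (-0.10), for Sdr9c7 without the second array of Scap wild type (-0.20) and for Smlr1 without Scap-/- replicate 1 (-0.072). Kirrel3 in TgSREBP-2 ranged from -0.35 to 0.28 and turned without SREBP wild type replicate 1 (0.28) or TgSREBP-2 replicate 2 (0.05). In TgSREBP-2 the ranges were 0.32 to 0.78 for Sdr9c7, -0.56 to -0.29 for Serpina11, -0.55 to -0.049 for Nat8 and 0.60 to 1.02 for Smlr1. Smlr1 in TgSREBP-1a ranged from -0.47 to -0.18 against SREBP wild type, the latter without its replicate 1. The probe sets called ranged from 23 to 96 between the transgenics (61 as reported), 40 to 186 in TgSREBP-1a (123), 7 to 37 in TgSREBP-2 (14) and 3 to 19 in Scap-/- (10), each highest with the replicate block (96, 186, 37 and 19). Same-numbered arrays deviated together at r of 0.204 to 0.332 over most pairs of groups. For TgSREBP-2 with Scap wild type, Scap-/- or TgSREBP-1a the r was -0.171, -0.114 and -0.175. The numbers were not taken to pair the arrays in the main fit, so a shift shared by some groups stays in its spread. The block left the differences of the 5 genes as they were, since each group holds both numbers. Each gene has 1 probe set, so a mean over probe sets could not be run as an alternative. Low signals, such as that of Sdr9c7 in TgSREBP-1a, limit what fold can be read.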
